A study of Mus musculus with 2 samples.

Results

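Cxcl9, Cxcl10 and Cxcr3 were followed cell by cell in leukocytes of mouse melanomas. These are 2 chemokines and the receptor they share, taken by symbol from the 31053 genes of the count matrices, so 3 of 31053 genes are described. Live leukocytes positive for CD45 were sorted on day 4 after injection of Ptgs-deficient melanoma cells into C57BL/6 hosts that were 8 weeks old. Ptgs1 and Ptgs2 encode the COX enzymes that start prostaglandin synthesis, and both were disrupted in the Braf-driven melanoma line used. Control hosts were left untreated, and the hosts depleted of NK cells were given 200 µg of anti-NK1.1 (clone PK136) and 30 µg of antiASIALO GM1 on days 0 and 2. Hosts, tumor line, day and sort were shared by the groups, and some parental melanoma cells were spiked into each sorted sample. Tumors of a group were pooled into 1 library, so every difference between the groups is a difference between 2 libraries with no replicate check, and no test was made. The genotype label of both samples reads wild-type tumor cells, against the sample titles and the series design, and this touches both groups alike.

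After the filter on cells, 5292 control cells with 24810009 UMIs and 4506 NK cell-depleted cells with 23245982 UMIs remained. A UMI (unique molecular identifier) marks 1 captured transcript molecule, and CPM is the number of UMIs per 1000000 UMIs of the cells named. The median cell held 4170 UMIs in the control library and 4893 in the NK cell-depleted library. The CD45 gene Ptprc was seen in 90.9% and 91.3% of the cells, and 5 cell barcodes occurred in both libraries. Cells were clustered without the 3 genes and without the interferon lists, and clusters were called after a cell type ("-like") from fixed markers. NK-like cells numbered 544 in the control and 1 after depletion. Intervals in brackets are exact, at 95%, and cover only the error of counting molecules or, for shares of cells, of counting cells. The variation among tumors is outside them. Intervals of levels and ratios also leave out the uneven spread of UMIs over cells, so removing a few cells could move a ratio past its interval.

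Cxcl9 and Cxcl10 are chemokines that interferons switch on in many cell types. Cxcl9 is known to depend mostly on interferon-gamma, while Cxcl10 also answers to type I interferon and NF-kB. Both bind Cxcr3, a receptor carried by activated T cells, NK cells and some dendritic cells (DCs), and so draw these cells into inflamed tissue and tumors. A further ligand gene of the receptor, Cxcl11, is annotated in GRCm38 as a polymorphic pseudogene. It is not in the count matrices and could not be measured.

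In the GRCm38 annotation Cxcl9 lies at chr5:92321347-92328079 and Cxcl10 at chr5:92346638-92348889, both protein coding on the minus strand with 4 exons. Cxcr3 lies at chrX:101731535-101734269, also on the minus strand, with 2 exons. Art3, on the plus strand, spans the Cxcl10 locus. It held 4 control and 2 NK cell-depleted UMIs, against 2952 and 1476 of Cxcl10. The 250 bases before the start of each ligand gene (RefSeq, GRCm38.p6, minus strand, 5′ to 3′) are shown because the genes that accompanied the ligands, described further down, were led by interferon-response genes. They are chr5:92328080-92328329 for Cxcl9 and chr5:92348890-92349139 for Cxcl10. Capitals mark matches to an interferon-stimulated response element (GAAA, any 2 bases, GAAA), a gamma-activated site (TTC, any 3 bases, GAA) or a kappa-B site (GGGA, any 4 bases, CC) on either strand; no match overlapped another.
Cxcl9: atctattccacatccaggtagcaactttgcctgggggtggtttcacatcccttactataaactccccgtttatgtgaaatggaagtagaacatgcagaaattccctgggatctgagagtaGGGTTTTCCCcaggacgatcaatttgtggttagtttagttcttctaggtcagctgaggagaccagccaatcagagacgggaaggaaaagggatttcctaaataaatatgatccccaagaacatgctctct
Cxcl10: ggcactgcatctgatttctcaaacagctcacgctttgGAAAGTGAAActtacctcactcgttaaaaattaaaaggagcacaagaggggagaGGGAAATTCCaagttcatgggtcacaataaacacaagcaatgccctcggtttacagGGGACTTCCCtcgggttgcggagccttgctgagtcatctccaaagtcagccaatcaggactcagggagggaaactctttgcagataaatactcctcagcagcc
The Cxcl10 window held an interferon-stimulated response element at positions -213 to -204 and kappa-B matches at -159 to -150 and at -103 to -94, counted back from the start. The Cxcl9 window held a kappa-B match at -130 to -121, on the opposite strand. The corresponding window of Cxcr3 held no match to any of the 3 motifs. Among the windows of 32851 promoters, 2.98% held the interferon-stimulated response element, 7.02% the gamma-activated site and 17.6% the kappa-B site, so a kappa-B match alone is common. These are matches of letters and not shown to be bound.

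Cxcl10 was the most abundant of the 3 transcripts, with 2952 UMIs in 410 control cells and 1476 UMIs in 275 NK cell-depleted cells. Cxcl9 had 442 UMIs in 61 control cells and 91 UMIs in 18 NK cell-depleted cells. Cxcr3 had 109 UMIs in 91 control cells and 38 in 33 NK cell-depleted cells. Over all cells the level of Cxcl9 was 17.8 CPM in the control library against 3.91 CPM after NK cell depletion, a ratio of 4.55 (3.62 to 5.77). The corresponding ratio of Cxcl10 was 1.87 (1.76 to 2.00) and that of Cxcr3 2.69 (1.84 to 4.00). With the NK-like cells left out of both libraries the ratio of Cxcr3 was 1.85 (1.23 to 2.82), while those of Cxcl9 and Cxcl10 were 4.77 and 1.87. Cluster 19, an unnamed cluster of 22 control cells and 1 NK cell-depleted cell led by Prf1, Klre1 and Gzma, was not counted as NK-like. With it left out too, the ratios were 1.84, 4.80 and 1.90.

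Monocyte/macrophage-like cells held most of the ligand UMIs: 64.7% and 64.8% of Cxcl9, and 80.3% and 84.8% of Cxcl10, in the control and NK cell-depleted libraries. Relative to the depth of each class, Cxcl9 was highest in the control library in migratory DC-like cells, marked by Ccr7 and Fscn1, at 92.9 CPM (65.1 to 129), which came from 4 of 67 cells. It then came to 33.8 CPM (22.4 to 48.8) in cDC2-like cells and 18.2 CPM (16.1 to 20.4) in monocyte/macrophage-like cells. Cluster 2, an unnamed cluster led by Dcstamp, Cdh1 and Ccl17, had 18.1 CPM (14.4 to 22.5), of which a single cell held 56 of 81 UMIs, and cDC1-like cells had 15.4 CPM (4.19 to 39.4) in 1 cell. The last 3 of these classes did not differ beyond their counting intervals. Sub-clusters 2.4 (97 cells) and 2.5 (60 cells) of cluster 2 carried cDC2 markers but were kept in it, and they held 70 of its 81 Cxcl9 UMIs. With them counted as cDC2-like, a reading added after seeing the data, that class had 64.3 CPM of Cxcl9 in the control library. The same single cell of cluster 2 held 56 of the 98 UMIs behind this value. The rest of cluster 2 had 2.92 CPM. All other named classes were at or below 4.04 CPM.

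The order for Cxcl10 was another one. With the few eosinophil-like cells left for the end, its control level was 165 CPM (132 to 205) in neutrophil-like cells and 151 CPM (145 to 157) in monocyte/macrophage-like cells. It was 122 CPM (94.8 to 155) in T-like cells and 120 CPM (102 to 140) in NK-like cells, with overlapping intervals from each class to the next. The neutrophil-like level came from 16 of 413 cells, 1 of which held 30 of the 82 UMIs. In NK-like cells 102 of the 162 UMIs sat in 1 cell, which also held 18 UMIs of Ifng and 9 of the 12 NK markers. That cell had 11511 UMIs, against a median of 2140 in NK-like cells, and 2 monocyte/macrophage markers. At least 3 such markers were in 28.6% of Cxcr3-positive and 16.3% of Cxcr3-negative NK-like cells. In T-like cells of both libraries these shares were 19.2% and 7.14%. The part of macrophage transcripts or doublets in these Cxcl10 levels was not tested. Lower levels were found in cDC2-like cells, at 82.0 CPM, in cluster 2, at 37.0 CPM, and in migratory DC-like cells, at 33.6 CPM. The eosinophil-like cluster had the highest control level of the named classes, at 838 CPM (402 to 1541). There 1 of 15 control cells held all 10 UMIs, at a median depth of 697 UMIs. In the NK cell-depleted library 7 of 70 eosinophil-like cells held 8 UMIs, at 171 CPM (73.8 to 337).

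Background from free RNA could be read only within limits. B-like cells (58 and 37) held no UMI of any of the 3 genes in either library, on 114410 control UMIs in all, which allows a level of up to 26.2 CPM. Cluster 14, an unnamed cluster of 52 and 69 cells, held none either, on 148110 control UMIs, which allows up to 20.3 CPM. Ptprc was seen in only 9.62% and 7.25% of the cells of cluster 14, in a sort to which melanoma cells had been added. These limits lie below the control level of Cxcl10 in monocyte/macrophage-like cells but above those of Cxcl9 and Cxcr3 there (18.2 and 1.27 CPM). B-like cells and cluster 14 thus do not set the latter levels apart from background. The NK markers Gzma and Nkg7 in monocyte/macrophage-like cells are compared between the libraries further down. For Cxcr3, cluster 2 held no UMI on 4464797 control UMIs, which allows up to 0.672 CPM. The 0 of 58 control B-like cells allows a share of up to 5.17%, at a median depth of 1596.5 UMIs against 4753 in monocyte/macrophage-like cells. The share of cells with a Cxcl10 UMI was 10.0% in control monocyte/macrophage-like cells and 6.82% after every cell was thinned to 2000 UMIs. For Cxcl9 these shares were 1.47% and 0.880%.

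**Figure D1:**
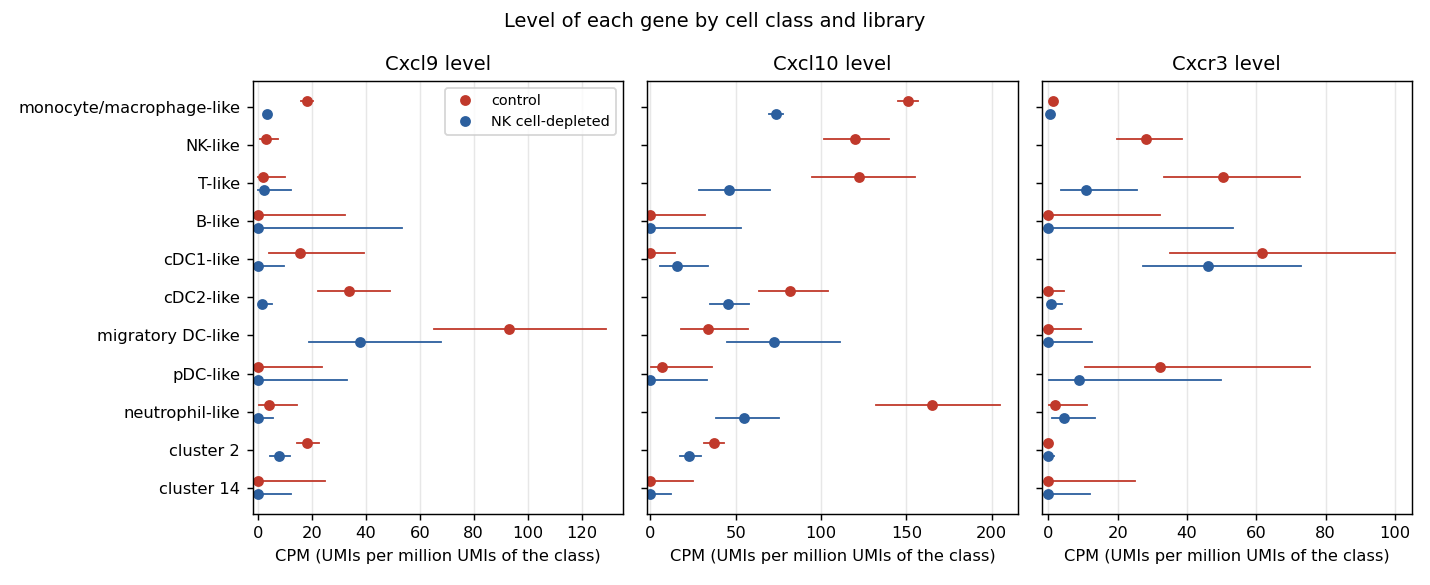
Level of Cxcl9, Cxcl10 and Cxcr3 (CPM, linear axes that start at 0) by cell class in the control (red) and NK cell-depleted (blue) libraries, 1 library each; points are levels and lines exact 95% Poisson intervals. Classes with under 20 cells in a library are not drawn there, so NK-like cells appear for the control only; eosinophil-like cells, mast cells and the smallest unnamed clusters are left out. Cxcl9 was highest in migratory DC-like cells (92.9 CPM, control) and Cxcr3 in cDC1-like cells (61.6 CPM, control).

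In monocyte/macrophage-like cells both ligands were higher in the control library. Cxcl9 was at 18.2 against 3.47 CPM, a ratio of 5.23 (3.94 to 7.04), and Cxcl10 at 151 against 73.7 CPM, a ratio of 2.04 (1.91 to 2.19). At the same 1.5-fold, 8.52% of the 11596 genes tested were higher in these control cells and 4.07% lower, with a median log2 ratio over all genes of -0.01. For Cxcl10 the share of positive cells differed by 1.38 times and the UMIs per positive cell were 7.74 against 5.77. For Cxcl9 the share of positive cells differed by 3.66 times, with 6.36 against 4.92 UMIs per positive cell, so the gap of Cxcl9 lay more in how many cells held it than in how much each held. Weighting both libraries to the same mix of the 9 monocyte/macrophage-like clusters gave ratios of 5.60 for Cxcl9 and 2.79 for Cxcl10. A few cells carried the Cxcl9 value: without the 5 top control cells, and with every NK cell-depleted cell kept, its ratio was 2.82. It was 7.91 without the 5 top cells of each library and 8.59 as a mean of the per-cell CPM.

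The gap differed among the monocyte/macrophage-like clusters. For Cxcl10 the ratio of control over NK cell-depleted was 5.72 (4.35 to 7.65) in cluster 6, led by Vcan and Chil3, and 4.91 (4.29 to 5.62) in cluster 4, led by the inflammatory monocyte gene Ly6c2. It was 3.45 (3.03 to 3.93) in cluster 5, led by Lyve1 and Il10. In cluster 0, led by Pf4 and Ms4a7, it was 0.838 (0.695 to 1.01), and in cluster 13, led by Retnla and Il6, 0.820 (0.618 to 1.08). The latter intervals include 1, as does that of cluster 11, led by Ace, at 1.48 (0.797 to 2.65). In cluster 0, however, 2 NK cell-depleted cells held 77 and 59 of 180 Cxcl10 UMIs, and the share of positive cells was 7.15% in the control against 4.37%. In a reading added after seeing the data, its ratio was 3.41 (2.48 to 4.79) without these 2 cells and 2.47 (1.78 to 3.49) without the 2 top cells of each library. The same removal from each library gave 0.688 (0.470 to 0.993) in cluster 13, 1.53 (0.736 to 3.06) in cluster 11 and 2.62 to 11.3 in the other 6 clusters. Cxcl10 is itself among the 10 leading genes of cluster 4, although it was not used to build it. For Cxcl9, cluster 6 held 125 control UMIs against 18 and cluster 4 held 65 against 6. In cluster 4, 1 control cell held 46 of the 65, and in cluster 6, 1 NK cell-depleted cell held all 18. Cluster 9, led by Retnla and Lyz1, held 44 against 0, at least 9.92-fold higher against a floor of 3 UMIs. Without the 2 top cells of each library the Cxcl9 counts were 39 against 0 in cluster 6, 13 against 1 in cluster 4 and 18 against 0 in cluster 9. The opposite occurred in cluster 11, where 1 NK cell-depleted cell held 12 Cxcl9 UMIs and the control cells none.

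**Figure D2:**
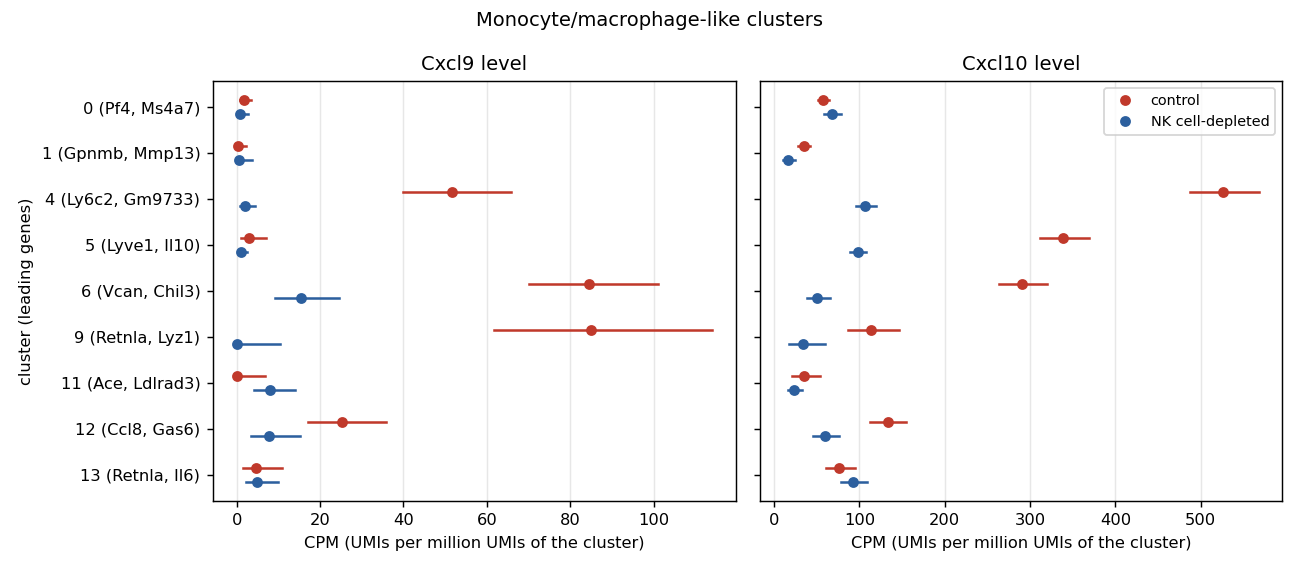
Cxcl9 and Cxcl10 (CPM, linear axes from 0) in the 9 monocyte/macrophage-like clusters, each named by number and leading genes, in the control (red) and NK cell-depleted (blue) libraries; lines are exact 95% Poisson intervals of 1 library each. The widest gaps of Cxcl10 were in clusters 4, 5 and 6 (526, 339 and 291 CPM in the control), while the intervals of clusters 0, 11 and 13 overlapped between libraries; 2 cells held 77 and 59 of the 180 NK cell-depleted UMIs of cluster 0.

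Outside these cells the ligands did not move alike. Cxcl10 was higher in the control library in T-like cells (122 against 45.9 CPM, ratio 2.66, 1.61 to 4.57) and in neutrophil-like cells (165 against 54.6 CPM, ratio 3.03, 2.03 to 4.62). Of all genes, 13.1% in T-like and 12.1% in neutrophil-like cells were higher in the control by 1.5-fold, and 11.2% and 9.70% lower. The T-like value after NK cell depletion rests on 21 UMIs in 6 cells. By sub-cluster, Cxcl10 was at 149 against 34.6 CPM in 10.1, led by Trac, Cxcr6 and Icos (ratio 4.29, 1.09 to 37.0), at 240 against 189 CPM in the regulatory T cell sub-cluster 10.2 (ratio 1.27, 0.703 to 2.37) and at 43.7 CPM against none in 10.0, led by Lef1 and Tcf7, which held 48 and 111 cells. The part of this mix in the T-like ratio was not tested. In cDC2-like cells Cxcl10 had a ratio of 1.82 (1.27 to 2.60), at a background of 9.03% higher and 9.59% lower, and in cluster 2 a ratio of 1.62 (1.19 to 2.25), at 6.64% and 7.33%. With sub-clusters 2.4 and 2.5 moved to the cDC2-like cells these ratios were 2.44 (1.80 to 3.34) and 0.991 (0.704 to 1.41), so the gap of cluster 2 lay in those sub-clusters. In migratory DC-like cells Cxcl10 was lower in the control, at 33.6 against 72.3 CPM (ratio 0.464, 0.213 to 0.971), where 16.4% of all genes were lower, while Cxcl9 was at 92.9 against 37.9 CPM (ratio 2.45, 1.22 to 5.34), where 11.1% were higher. These DC values rest on 1 to 7 positive cells a library. For Cxcl10, 1 NK cell-depleted cell held 13 of the 21 UMIs, and the shares of positive cells were 10.4% and 9.62%. All 11 Cxcl9 UMIs of the NK cell-depleted migratory DC-like cells lay in 1 cell. In cDC2-like cells Cxcl9 had 28 control UMIs in 3 cells, all in sub-cluster 8.3, against 2 in the other library.

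Ligand transcripts were concentrated in few cells. At least 50% of all Cxcl9 UMIs lay in 6 control cells and in 4 NK cell-depleted cells, whereas 33 and 31 cells were needed for Cxcl10. These cells were 9.84% and 22.2% of the Cxcl9-positive cells, and 8.05% and 11.3% of the Cxcl10-positive cells. Relative to the number of positive cells, Cxcl9 was thus not more concentrated than Cxcl10. The highest Cxcl9 content of a cell was 57 UMIs in the control, in a cell of cluster 6 that also held 26 Cxcl10 UMIs and 14 Gbp2 UMIs. The highest Cxcl10 content was 118 UMIs, in a control cell of cluster 5 with 20 Isg15 UMIs and no Cxcl9. None of the 5 cells with the most Cxcl10 in either library held any Cxcl9. The receptor showed the reverse pattern: 82.4% and 87.9% of its positive cells held 1 UMI, with at most 4 in a cell.

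In the control library Cxcl9-positive cells held Cxcl10 more often than other cells of the same clusters did. Of 45 Cxcl9-positive monocyte/macrophage-like cells 25, or 55.6% (40.0 to 70.4), also held Cxcl10. Among Cxcl9-negative cells the share was 9.34% (8.32 to 10.4), and 12.7% when these were weighted to the clusters of the positive cells, which corresponds to 5.71 cells in place of 25. The median depth was 4950 UMIs in Cxcl9-positive and 4746 in Cxcl9-negative cells. With every cell thinned to 2000 UMIs, 12 of 24 Cxcl9-positive cells (interval 29.1 to 70.9%) held Cxcl10, against 6.44% of the negative cells. Read the other way, 8.17% (5.36 to 11.8) of Cxcl10-positive cells held Cxcl9. Cells with both ligands had a median of 11 Cxcl10 UMIs, and cells with Cxcl10 but no Cxcl9 a median of 2.

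In the NK cell-depleted library 2 of 12 Cxcl9-positive monocyte/macrophage-like cells held Cxcl10, a share of 16.7% (2.09 to 48.4), against 7.24% (6.33 to 8.23) of the negative cells. After thinning it was 0 of 5, which leaves this share unresolved at this depth. The other 10 Cxcl9-positive cells held up to 18 Cxcl9 UMIs without a Cxcl10 UMI. Of the Cxcr3-positive cells, 3 of 91 in the control and 1 of 33 after NK cell depletion held Cxcl10, where Cxcr3-negative cells of the same clusters would give 5.70 and 2.11. Among all Cxcr3-negative cells 7.83% and 6.13% held Cxcl10. Cxcl9 was present in 1 Cxcr3-positive cell of each library, or 1.10% and 3.03%, against 1.15% and 0.380% of the Cxcr3-negative cells.

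**Figure D3:**
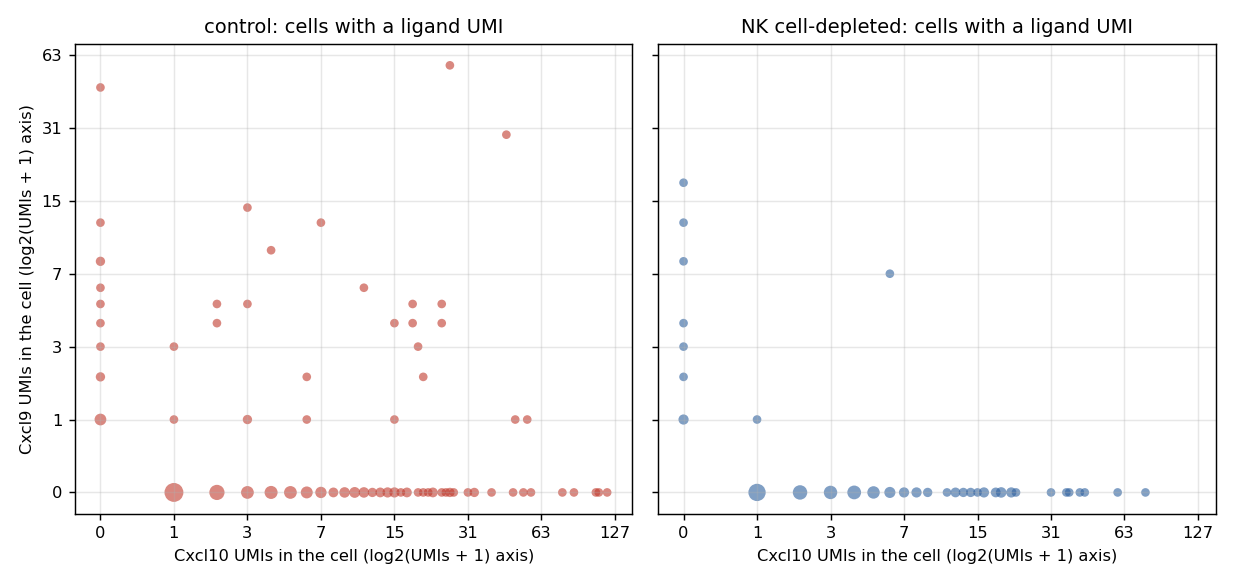
Cxcl9 against Cxcl10 UMIs in each monocyte/macrophage-like cell that held a UMI of either, in the control (left, red) and NK cell-depleted (right, blue) library; both axes are on a log2(UMIs + 1) scale and point area grows with the number of cells at that position. Of the control cells 25 lie off both axes, against 2 of the NK cell-depleted cells.

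Genes of the type I interferon response led those that went with Cxcl10, although most of the genes past the fold were not on that list: 41 of 300 in the control and 37 of 204 in the NK cell-depleted library were. Monocyte/macrophage-like cells with 2 or more Cxcl10 UMIs (191 control, 141 NK cell-depleted) were set against cells with none (2749 and 2764), weighted to the same clusters. Rsad2, which encodes the antiviral protein viperin, was at 1442 against 193 CPM in the control and at 1281 against 184 CPM in the NK cell-depleted library, log2 ratios of 2.84 and 2.73 (10 CPM added on both sides, here and in all such ratios). Ifit2, an antiviral RNA-binding family member, was at 470 against 70.3 CPM and at 295 against 42.2 CPM, log2 2.58 and 2.54. Both were close between libraries in this respect, although the level of Cxcl10 was not.

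The next genes by the smaller of the 2 log2 ratios were Ifit1 (2.57 control and 2.35 NK cell-depleted), Cmpk2 (2.44 and 2.22), Ifit3 (2.29 and 2.03) and Ifi205 (2.31 and 1.75). Mx1, a dynamin-like antiviral GTPase, followed with 2.08 and 1.68, and Oasl1 with 1.78 and 1.54. Isg15, a ubiquitin-like modifier, had 1.89 and 1.52 and Usp18, which removes it, 1.81 and 1.30. Of the other 5 genes, Herc6, Ifi208, Slfn4 and Igtp lay between 1.25 and 1.47, and the chemokine Ccl12 had 1.58 and 1.49. All 15 were past 1.5-fold in both libraries and under each of the 6 other ways of setting the contrast, although after thinning 10 of them remained among the first 15. The 5 genes lowest with Cxcl10 had smaller ratios: Rgs1 (-0.64 and -0.78), the heme oxygenase gene Hmox1 (-0.89 and -0.57), the lysosomal protease gene Ctsd (-0.64 and -0.52), the platelet factor gene Pf4 (-0.52 and -0.93) and Wwp1 (-0.51 and -0.74).

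By list, 41 of 49 type I interferon genes tested were higher by 1.5-fold with Cxcl10 in the control library and 37 of 49 in the NK cell-depleted library, with medians of 1.20 and 0.83 log2. Over all genes, 3.12% and 2.14% were higher by this fold, 1.73% and 2.16% lower, and the medians were -0.05 and -0.04. Of the interferon-gamma list 26 of 41 genes were higher in the control (median 0.71) and 14 of 40 in the NK cell-depleted library (median 0.46). Gbp5 had 2.07 and 1.24, Iigp1 1.88 and 0.27 and Gbp4 1.87 and 0.52, all interferon-induced GTPases, with the larger value in the control library for each. Of the NF-kB list 8 of 26 were higher in each library (medians 0.47 and 0.49), with Il6 at 1.11 and 1.70 and Cd40 at 1.32 and 0.69. None of the 18 stress genes was past the fold in either direction (medians -0.11 and -0.09). Across 5436 genes the log2 ratios of both libraries had a Pearson correlation of 0.60. Genes are not independent replicates, and 113 were higher in both, of 231 (48.9%) and 149 (75.8%).

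**Figure D4:**
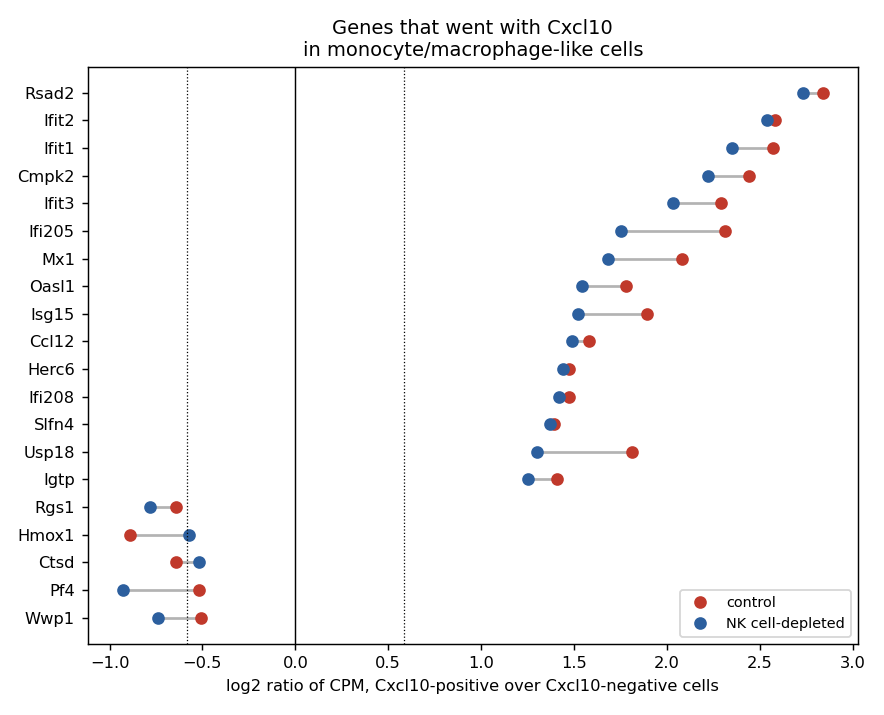
Genes that went with Cxcl10 in monocyte/macrophage-like cells: log2 ratio of CPM in cells with 2 or more Cxcl10 UMIs over cells with none, for the control (red) and NK cell-depleted (blue) libraries, joined by a line for each gene; dotted lines mark 1.5-fold in each direction. The 15 genes at the top lie between 1.25 and 2.84, and Rsad2 leads in both libraries; the 5 at the bottom lie between -0.93 and -0.51.

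The interferon genes were next read by the amount of Cxcl10 in the cell. In the control library the median log2 ratio of the type I list over cells without Cxcl10 was 0.49 in cells with 1 Cxcl10 UMI, 0.86 with 2, 0.92 with 3 to 5, 1.11 with 6 to 10 and 1.49 with more than 10. The NK cell-depleted values were 0.64, 0.66, 0.75, 0.56 and 1.10, with 18 cells in the bin of 6 to 10. The interferon-gamma list ran from 0.22 to 0.94 in the control and from 0.36 to 0.38, with 0.17 as its lowest value, in the NK cell-depleted library. Cxcl9-positive cells made up 0.728% of control cells without Cxcl10 and 22.4% (13 of 58) of those with more than 10 UMIs. In the NK cell-depleted library these were 0.362% and 0 of 33. After thinning the type I values of the control were 0.51, 1.49, 1.12, 1.52 and 1.82. Cells with more Cxcl10 were also somewhat deeper, with a median of 5415.5 UMIs above 10 against 4694 at 0 in the control and 7524 against 5288.5 in the NK cell-depleted library.

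Cxcl9-positive cells were read in the same way. The 45 in the control library were set against 3010 negative cells of the same clusters, and 12 against 2969 in the NK cell-depleted library. At these sizes 7.37% and 13.2% of all genes were higher by 1.5-fold and 12.8% and 24.6% lower, so single values are less precise than for Cxcl10. The chemokine gene Ccl5 was at 371 against 23.3 CPM in the control and 115 against 6.12 CPM in the NK cell-depleted library, log2 3.52 and 2.96, the latter from 11 UMIs. Gbp2, an interferon-induced guanylate-binding protein, was at 798 against 75.6 and 324 against 36.3 CPM, log2 3.24 and 2.85. Serpina3g (3.02 and 2.25), Gbp4 (2.64 and 2.75), Slamf8 (2.51 and 1.78), Ly6i (2.03 and 2.59) and AW112010 (2.01 and 2.47) were also high in both libraries. Several of these genes were high with Cxcl10 too, in the control at 2.24 for Ccl5, 1.96 for Gbp2 and 1.87 for Gbp4.

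Cd274, which encodes the checkpoint ligand PD-L1, had 2.25 in control cells but 0.91 after NK cell depletion, and Fam26f had 2.25 and 0.56. The NK cell-depleted values of these genes rest on 4 UMIs each. Cxcl10 itself was among the first 10 genes in the control, with 1622 against 235 CPM (log2 2.74). In the NK cell-depleted library it was at 73.3 against 84.1 CPM (log2 -0.18). Of the interferon-gamma list 27 of 41 genes were higher with Cxcl9 in the control, none lower (median 0.84), and of the type I list 25 of 49 (median 0.60). In the NK cell-depleted library these were 17 of 40 higher and 4 lower (median 0.51), and 7 of 49 higher and 2 lower (median 0.11). In 2 of the 45 Cxcl9-positive control cells, 4.44% (0.543 to 15.1), 3 or more NK markers were present, against 0.266% of the negative cells. None of the 306 Cxcl10-positive cells had as many. The part of NK transcripts in the Cxcl9 values, Ccl5 included, was not tested.

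Control monocyte/macrophage-like cells split by the ligands they held showed both sets side by side. Rsad2 was at 1677 CPM in the 25 cells with both ligands and 1016 CPM in the 281 with Cxcl10 only, against 97.4 CPM (44.5 to 185) in the 20 with Cxcl9 only and 168 CPM in the 2729 with neither. Gbp2 ran at 916 and 147 CPM in the cells with both and with Cxcl10 only, and at 617 CPM (467 to 799) and 36.5 CPM in those with Cxcl9 only and with neither. In CPM the cells with Cxcl9 only were thus at the level of ligand-negative cells for Rsad2 and well above it for Gbp2. The share of cells with a Gbp2 UMI was 35.0% (15.4 to 59.2) with Cxcl9 only and 34.9% with Cxcl10 only. It was 12.2% with neither ligand. A single cell with Cxcl9 only held 18 of the 57 Gbp2 UMIs of its group. This split was not weighted to clusters.

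Ifit2 and Isg15 had the pattern of Rsad2, with 32.5 and 86.6 CPM in cells with Cxcl9 only and 326 and 681 CPM in those with Cxcl10 only. Ccl5 and Slamf8 had that of Gbp2, with 368 and 357 CPM in cells with Cxcl9 only and 63.8 and 60.8 CPM in those with Cxcl10 only. The small NK cell-depleted group of 10 cells with Cxcl9 only did not repeat the low Rsad2, with 422 CPM (283 to 606) against 159 CPM in cells with neither, while its Gbp2 was at 364 against 29.0 CPM.

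**Figure D5:**
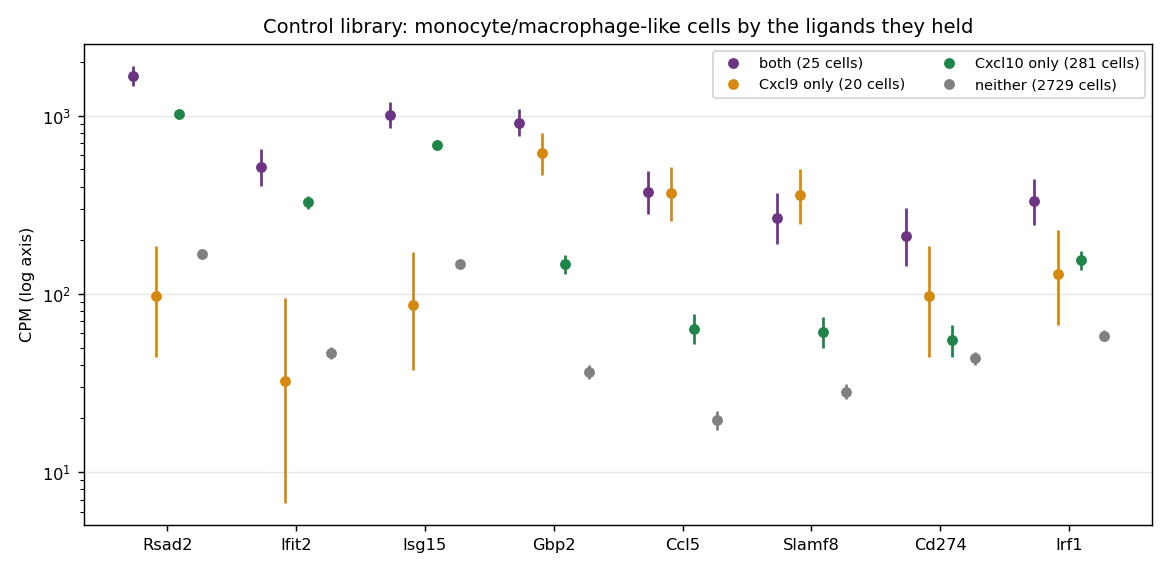
Level of 8 genes (CPM, log axis) in control monocyte/macrophage-like cells with both ligands (purple, 25 cells), Cxcl9 only (orange, 20), Cxcl10 only (green, 281) or neither (grey, 2729); lines are exact 95% Poisson intervals of the summed UMIs. Rsad2, Ifit2 and Isg15 were low in cells with Cxcl9 only (97.4, 32.5 and 86.6 CPM), while Gbp2, Ccl5 and Slamf8 were high in them (617, 368 and 357 CPM).

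Promoter letters were compared with these groups as a description. Of the 15 genes highest with Cxcl10, 13 had an entry among the RefSeq promoters, and 7 of these (Rsad2, Ifit1, Ifit3, Ifi205, Isg15, Ifi208 and Igtp) held the interferon-stimulated response element that the Cxcl10 window also has, against 2.98% of all promoters. Of the 9 other genes highest with Cxcl9, 5 had an entry, and Gbp2 and Slamf8 held it. The gamma-activated site occurred in 2 of the 13 and 1 of the 5, and the kappa-B site in 3 of the 13 and 1 of the 5.

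The other genes of the pathway were taken from a list of inducers, receptors, kinases, transcription factors and inhibitors. Of 24 tested, 10 were higher with Cxcl10 in control cells and 7 after NK cell depletion, none lower. Irf1, an interferon-induced transcription factor, had 1.16 and 0.64, Irf7, a driver of type I interferon genes, 1.16 and 0.93, and the feedback inhibitor Socs1 1.52 and 0.95. The interferon receptor chains were not among them: Ifngr1 had -0.49 and -0.12, Ifngr2 -0.07 and 0.05, Ifnar1 0.26 and 0.22 and Ifnar2 0.03 and 0.19. With Cxcl9, 10 of 24 were higher and 1 lower in the control (Ifnar2, -0.65), with Irf8 at 1.10 and Nfkb1 at 0.94, and 2 of 24 higher and 3 lower in the NK cell-depleted library.

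Between the libraries, levels of this list in all monocyte/macrophage-like cells lay close together although the ligands differed. None of 25 was higher by 1.5-fold in the control and 1 lower, the decoy receptor gene Ackr3 (-0.65, from 24 and 41 UMIs). Irf1 was at 71.4 and 66.3 CPM. Against the background of 8.52% of genes higher and 4.07% lower, 11 of 43 genes of the interferon-gamma list were higher in the control (median 0.19), including Iigp1 (2.01) and Gbp4 (1.27), and of the type I list 5 of 49 (median 0.01). Of the other chemokines 8 of 20 were higher and 3 lower, with Ccl5 at 2.16 and Cxcl1 at -0.82, and of the NF-kB list 1 of 27 was higher and 2 lower. Of a list of type 1 lymphocyte genes that includes Ccl5, 6 of 15 were higher and none lower. Among them were Gzma (7.61) and Nkg7 (4.59), both markers used to name NK-like cells. The part of NK transcripts in the Ccl5 value was not tested.

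Among the inducers, Ifng had 406 UMIs in the control library, 90.4% of them in NK-like cells, where 27.6% of the cells were positive, and 7.64% in T-like cells. In the NK cell-depleted library Ifng had 16 UMIs, 14 of them in 3 T-like cells. Ifnb1, a type I interferon gene, had no UMI in the control and 8 in 2 monocyte/macrophage-like cells of the NK cell-depleted library. Both of those cells held Cxcl10, with 34 UMIs together.

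The receptor was highest relative to depth in dendritic and lymphoid cells. In the control library Cxcr3 was highest in cDC1-like cells, marked by Xcr1 and Clec9a, at 61.6 CPM (35.2 to 100), followed by T-like cells at 50.3 CPM (33.4 to 72.7), pDC-like cells at 32.3 CPM (10.5 to 75.5) and NK-like cells at 28.1 CPM (19.9 to 38.6). Each of these classes overlapped with the next in its interval. Monocyte/macrophage-like cells had 1.27 CPM, and cluster 2 held no Cxcr3 UMI in 549 control and 276 NK cell-depleted cells. Because of their number the NK-like cells held 34.9% of all control UMIs of Cxcr3, T-like cells 25.7%, monocyte/macrophage-like cells 18.3% (20 of 109 UMIs) and cDC1-like cells 14.7%. After NK cell depletion the monocyte/macrophage-like cells held 26.3%.

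In cDC1-like cells 12 of 35 control cells (34.3%) and 14 of 52 NK cell-depleted cells (26.9%) held Cxcr3, at 61.6 and 46.1 CPM, a ratio of 1.33 (0.636 to 2.77). These are deep cells, and after thinning the shares were 8.82% and 7.69%. None of the 26 positive cells held a UMI of Cd3. The cDC1-like cells held 47.4% of the Cxcr3 UMIs of the NK cell-depleted library, or 30.8% after thinning.

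In T-like cells the level was 50.3 CPM, from 22 positive cells, in the control and 10.9 CPM, from 4, after NK cell depletion. The ratio was 4.60 (1.75 to 15.3), where 13.1% of all genes were higher by 1.5-fold. The ratio turned to 0.905 (0.176 to 5.83) under a stricter filter on cells. Cxcr3 sat mostly in sub-cluster 10.1, led by Trac, Cxcr6 and Icos, at 91.2 CPM (19 UMIs, 99 cells) and 69.3 CPM (4 UMIs, 26 cells), a ratio of 1.32 (0.437 to 5.32). Sub-cluster 10.0, led by Lef1 and Tcf7 as in resting T cells, held none in 48 and 111 cells. The mix of these sub-clusters thus moved with the class ratio, and its part in it was not tested. Sub-cluster 10.2, led by the regulatory T cell genes Foxp3 and Ctla4, had 43.6 and 9.93 CPM (6 and 1 UMIs), and sub-cluster 10.4, led by Il17a and Trdc, 25.1 CPM and none (3 and 0 UMIs).

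Within the 544 control NK-like cells 35 (6.43%) held Cxcr3. The cycling sub-cluster led by Top2a and Mki67 had 45.3 CPM (24.1 to 77.5) and 17.9% positive cells, and the others between 14.0 and 28.6 CPM. After thinning its share was 7.27%, next to 8.16% in the sub-cluster led by Emb and Kit, so the excess of positive cells there was not detectable at equal depth.

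Genes that went with Cxcr3 in NK-like cells were few in UMIs. Rsad2 (log2 3.02, 34 UMIs in positive cells), Il1b (2.74, 49 UMIs), Ly6c2 (2.64, 116 UMIs), Ifi27l2a (2.63, 45 UMIs) and Cd3e (2.57, 11 UMIs) had the highest ratios, at a background of 8.44% of genes higher and 13.6% lower. Slco3a1, Ehd3, Cd3d, Plpp5 and Ciart followed, between 1.90 and 2.50. Il1b is mostly a gene of myeloid cells, and Cd3d and Cd3e are genes of T cells. Beside this, 3 or more monocyte/macrophage markers were seen in 28.6% of positive and 16.3% of negative NK-like cells, and a Cd3 UMI in 11.4% and 2.95%. Positive cells were also deeper, with medians of 2893 and 2106 UMIs. The part of either in these ratios was not tested.

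The 5 genes lowest with Cxcr3 (Rex1bd, Pgd, Chpf, Fam192a and Polr3k) had no UMI in the positive cells. Tbx21, the transcription factor of type 1 lymphocytes, had 0.46 and Ifng -0.56. Of the type 1 lymphocyte list 2 of 19 genes were higher and none lower (Ly6c2 and Fasl), of the NK maturation list 2 of 16 higher and 4 lower (S1pr5 at -1.72 and Kit at -1.42 the lowest), of the naive lymphocyte list 0 of 7 in either direction, and of the chemokine receptors 0 of 5 higher and 1 lower.

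In T-like cells of both libraries, 26 positive against 406 negative cells, the 10 genes with the highest ratios (AW011738, Rnf130, Ccnyl1, Haus7, Gin1, Cracr2a, Npepl1, Ubox5, Cdh1 and Rufy3) had 3 to 9 UMIs each in the positive cells. Their log2 ratios of 2.28 to 2.69 stand against 13.4% of genes higher and 20.4% lower. Tbx21 had 1.68, from 8 UMIs. Of the type 1 lymphocyte list 3 of 12 were higher (Nkg7 at 1.21, Ly6c2 at 1.19 and Il2rb at 0.67), none lower. Of the naive list 2 of 9 were higher and 1 lower (Ccr7, -2.67).

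Across 25 combinations of class and library, the genes most like Cxcl9 in log2(CPM + 1) were Fabp4 (Pearson r 0.85), Nostrin (0.81), Ehf (0.79), Aldh1a2 (0.78) and Tmem51os1 (0.78). Those most like Cxcl10 were Tbc1d2b (0.86), Lcp2 (0.82), Nfkbiz (0.82), Fyb (0.82) and Paqr7 (0.81), and those most like Cxcr3 were Mxd3, Lnpk and Arsb (0.68 each) and Ank1 and Prkch (0.65 each). Cxcl9 and Cxcl10 had an r of 0.34 with each other, and Cxcr3 had -0.15 with Cxcl9 and -0.02 with Cxcl10. Combinations of a library share its handling and the smaller classes hold few cells, so these are descriptions.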

How the data were processed

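Leukocytes of 2 samples, 1 per group, were profiled by droplet 3′ RNA sequencing. Per the labels the authors used bcl2fastq and Cell Ranger with mm10, the same assembly as GRCm38, and the deposited matrices hold UMI counts per gene and cell (count, not normalized). Their Cell Ranger version differs between sources. The filter of the study was applied: 500 to 15000 UMIs and 200 to 4000 genes per cell, with no more than 10% of UMIs from mitochondrial genes. No doublet caller was run in the main analysis. Cells were clustered on log2(CPM + 1) of 2000 variable genes, 15 principal components, 20 neighbours and Leiden resolution 1 (leidenalg 0.10.2, scikit-learn 1.9.0, Python 3.11.15). A cluster was named when at least 3 of its type's markers led it; 1 lymphoid cluster (cluster 19) with high macrophage markers stayed unnamed. T-like and unnamed clusters, which included the DCs other than migratory ones, were clustered once more, and cluster 2 was kept whole. These names were rebuilt here, which may set values apart from those of the study.

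UMIs were summed per class and library. Intervals are exact Poisson for sums, exact conditional binomial for ratios and exact Clopper-Pearson for shares. Genes with fewer than 20 UMIs in the 2 libraries together were not tested between libraries. Log2 ratios of positive over negative cells are log2(CPM + 10), those between libraries add 0.5 UMI, and both understate changes of low genes. Motifs were searched in 250 bases before the start. The script was tested on simulated counts. With 1 library per group no p-value could be given.

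Genes named with Cxcl10 are the 15 highest and 5 lowest by the less extreme library, among genes seen in at least 10% of positive cells with at least 50 UMIs. For Cxcl9 they are the 10 highest in control cells (seen in at least 20% of positive cells), and for Cxcr3 the 10 highest (with the 5 lowest in NK-like cells). The 3 genes, the 10 gene lists and the markers were chosen with earlier results of these data known, and support nothing independently. Alternatives were other cell filters, thinning to 2000 UMIs, other resolutions, cell-by-cell classes, removal of likely doublets and removal of the 5 top cells. Cluster ratios without 2 top cells and wider cDC2-like and NK-like classes were added after seeing the data.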

Additional observations from a re-analysis of the deposited data

Results flagged for a closer look

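Cells above the upper limits of the filter (over 15000 UMIs or 4000 genes) enter the report only in the alternative with no upper limits. They held transcripts of these genes above what a count of 0 allows (0.498 CPM in the control library, 0.306 CPM after NK cell depletion). Cxcl10 was at 25.2 CPM (21.4 to 29.6) in 212 such control cells, with 152 UMIs in 20 of them, and at 18.2 CPM (15.7 to 21.1) in 353 such NK cell-depleted cells, with 179 UMIs in 28. Both levels are below those of the kept cells, 119 and 63.5 CPM. Cxcr3 was at 0.612 CPM (0.224 to 1.33) in the NK cell-depleted cells of this kind, from 6 UMIs in 4 cells. Cxcl9 had 2 UMIs there in the control and none in the NK cell-depleted library.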

How the results depend on the processing

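No paired analysis was possible because each group was 1 library. Of 121 alternative values, 88 moved by less than their counting interval (or, for the 6 counts of genes, by less than 1.5 times), 32 moved more and 1 reversed. The ratio of Cxcl9 over all cells, 4.55, was 6.36 after thinning, 7.28 without the 5 top cells of each library, 7.14 as a mean of per-cell CPM and 2.40 without the 5 top control cells alone, an alternative chosen after seeing the data. In monocyte/macrophage-like cells, 5.23 became 7.71 at resolution 0.5, 7.91, 8.59 and 2.82 respectively. For Cxcl10, 1.87 over all cells became 2.01 with no upper limits, 1.73 with the stricter filter (at least 2000 UMIs, at most 5% mitochondrial) and 1.55 without the 5 top control cells, and 2.04 in monocyte/macrophage-like cells became 1.88, 1.86 and 1.68, with 1.90 for cell-by-cell classes. The monocyte/macrophage-like share of Cxcl9 was 74.0% after thinning and 74.4% cell by cell in the control, and 88.9%, 76.9% and, at resolution 0.5, 45.1% in the NK cell-depleted library. That of Cxcl10 was 77.9% with no upper limits, 89.2% with the stricter filter, 84.6% after thinning and 76.2% at resolution 0.5 in the control, and 91.4%, 91.3%, 82.0%, 82.8% cell by cell and 81.6% without the top cells in the NK cell-depleted library. The Cxcr3 ratio in T-like cells, 4.60, reversed to 0.905 with the stricter filter, which left 57 T-like cells. The Cxcr3 share of NK-like control cells was 47.6% and that of NK cell-depleted cDC1-like cells 30.8% after thinning, and the share of Cxcl9-positive NK cell-depleted cells with Cxcl10 was 0. Among the 2978 genes considered for naming, 95 were past 1.5-fold with Cxcl10 in both libraries, and 79 to 135 under the alternatives. Apart from thinning, filters and the removal of cells, whose construction is to use fewer or other cells, the cause of these shifts was not tested. Leaving out 332 control and 194 NK cell-depleted cells with markers of 2 types (5.37%) moved none of these values beyond its interval. It did not act on Cxcr3 alike in both libraries, with 109 UMIs becoming 80 in the control and 38 becoming 37 after NK cell depletion. The ratio of Cxcr3 over all cells went from 2.69 to 2.07 (1.39 to 3.15). Depth limits Cxcr3 most, since most positive cells held 1 UMI.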
